A study of Homo sapiens with 12 samples.

Results

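The TSNAXIP1-CENPT locus on chromosome 16q22 holds 8 listed protein-coding genes, GFOD2, RANBP10, TSNAXIP1, CENPT, NUTF2, EDC4, NRN1L and PSKH1, among the 28278 gene symbols of the count tables and the 25056 symbols of the MED30 tables. They were selected on the measured log2 fold change with doxycycline (Dox) in these same libraries, which peaks at TSNAXIP1 and CENPT, and on genomic order around that pair. The Dox responses of the 8 genes, and the differences of these responses between lines, are therefore a description, given with standard errors and without p-values. Where such a response passed the threshold of the fit over all genes (an adjusted p under 0.05), it is written as called and counted beside the share of all genes called, and nothing is read from that count. All 8 passed the filter on low values, among 19318 genes tested in the count tables and 14780 in the MED30 tables.

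Nascent transcription had been measured by precision run-on sequencing (PRO-seq) in Mia PaCa-2, a human pancreatic carcinoma cell line. Stably integrated lines carried Dox-inducible MED30, MYC with a 3xHA tag, or MED30 and MYC together, from an all-in-one vector that also holds the Tet transactivator and a puromycin resistance gene. Each of the 3 lines was profiled without Dox and with 0.5 μg/ml Dox, which gave 6 groups of 2 libraries. The control groups are labelled Ctl_for_MED30OE, Ctl_for_MYCOE and Ctl_for_MED30&MYCOE, and the groups with Dox MED30OE, MYCOE and MED30&MYCOE. The design text gives 1 day of Dox and the results text of the study 2 days. The labels name no line with an empty vector, so Dox itself and the induced gene cannot be told apart. Nothing states that the 2 libraries of a group came from separate cultures, so the spread behind each p-value may be technical.

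PRO-seq maps RNA polymerases that are engaged on DNA, because only these extend their RNA with labelled nucleotides in isolated nuclei. Reads over a gene body therefore follow the density of transcribing polymerase and not the amount of stable mRNA. MED30 is a subunit of Mediator, the complex that connects transcription factors with RNA polymerase II, and MYC is a transcription factor that binds E-boxes together with MAX. The genes of the locus have unrelated functions. CENPT is a kinetochore protein that links centromeric chromatin to the microtubule-binding machinery, and TSNAXIP1 encodes a testis-rich protein that interacts with translin-associated factor X. NUTF2 returns RanGDP to the nucleus, EDC4 is a scaffold of the mRNA decapping complex, PSKH1 is a serine kinase, and RANBP10 binds Ran and is related to a subunit of the CTLH ubiquitin ligase. GFOD2 is a protein with a glucose-fructose oxidoreductase domain, and NRN1L is related to the neurite-promoting protein neuritin.

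The 8 genes span 255.1 kb, with 5 genes on the plus strand and 3 on the minus strand. In RefSeq coordinates of GRCh38.p14, GFOD2 (chr16:67674536-67719316) and RANBP10 (chr16:67723070-67806560) lie on the minus strand. TSNAXIP1 (chr16:67806889-67828068) lies on the plus strand and starts head to head with RANBP10, with 328 bases between the start sites. CENPT (chr16:67828157-67847693) lies on the minus strand and ends 88 bases from the end of TSNAXIP1, while the GENCODE models of this tail-to-tail pair share 3992 bases. NUTF2 (chr16:67846933-67872567), on the plus strand, starts within the 5' end of CENPT, and the RefSeq spans of the pair share 761 bases. EDC4 (chr16:67873052-67884499), NRN1L (chr16:67884885-67888855) and PSKH1 (chr16:67893254-67929676) follow on the plus strand, with gaps of 484 bases from NUTF2 to EDC4 and 385 bases from EDC4 to NRN1L. THAP11 (chr16:67842320-67844195), a zinc-finger transcription factor gene of 1876 bases on the plus strand, lies wholly inside CENPT.

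Promoter sequences are shown for the start sites that flank the strongest responses, those of CENPT and NUTF2, and for RANBP10, whose window covers most of the interval up to the TSNAXIP1 start. They run from 250 bases before to 50 bases after the start site, 5' to 3' on the strand of the gene, and come from RefSeq on GRCh38.p14. The windows are chr16:67847644-67847943 (minus strand) for CENPT, chr16:67846683-67846982 (plus strand) for NUTF2, which has 2 promoter entries, and chr16:67806511-67806810 (minus strand) for RANBP10. Capitals mark a CCAAT box on either strand.
CENPT: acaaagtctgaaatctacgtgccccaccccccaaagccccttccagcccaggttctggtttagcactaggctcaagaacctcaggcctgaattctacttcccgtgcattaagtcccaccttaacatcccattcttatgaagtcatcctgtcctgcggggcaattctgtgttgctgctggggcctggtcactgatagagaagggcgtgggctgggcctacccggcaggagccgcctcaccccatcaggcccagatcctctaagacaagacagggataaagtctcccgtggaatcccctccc
NUTF2: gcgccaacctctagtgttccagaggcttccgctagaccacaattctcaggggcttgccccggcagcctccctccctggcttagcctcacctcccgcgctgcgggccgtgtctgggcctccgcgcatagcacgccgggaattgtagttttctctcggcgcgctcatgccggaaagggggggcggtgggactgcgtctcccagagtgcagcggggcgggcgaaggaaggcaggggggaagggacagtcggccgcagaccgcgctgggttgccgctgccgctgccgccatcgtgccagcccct
RANBP10: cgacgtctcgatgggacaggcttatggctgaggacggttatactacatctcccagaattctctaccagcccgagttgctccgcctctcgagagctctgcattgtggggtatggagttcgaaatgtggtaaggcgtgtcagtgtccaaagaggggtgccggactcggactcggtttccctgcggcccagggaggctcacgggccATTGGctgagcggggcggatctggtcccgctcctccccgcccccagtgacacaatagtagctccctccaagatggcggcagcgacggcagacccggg
Of the 8 genes, 7 had a promoter entry. The E-box letters CACGTG, which read the same on both strands, were in none of their promoter windows, against 7.26% of 35116 human promoters of 300 bases, and this says only that these letters are not in these windows. The letters CCAAT, searched on both strands, were in 34.6% of all promoters and in those of RANBP10 (opposite strand, at -47 from the start site), NRN1L (same strand, at -65) and PSKH1 (opposite strand, at -122). GC content was 56.3% in the CENPT window, 69.3% in that of NUTF2 and 62% in that of RANBP10, beside a median of 58.7% over all promoters. The CENPT window held 7 CpG dinucleotides, the NUTF2 window 28 and the RANBP10 window 22, with a median of 14.

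Several facts of the libraries bear on every value. The count tables held 20616713 to 29881914 counts per library, except the control 2 of the MED30&MYC line with 1257499. The MED30 tables held scaled values with totals of 6379143 to 6519353, so their depth is unknown. In the libraries labelled MYC, the MYC level went from 398 and 387 CPM (TMM-scaled counts relative to the library size) without Dox to 261 and 269 with Dox, and MED30 from 32.9 and 32.1 to 815 and 620, against the label. In the MED30&MYC line MYC went from 279 and 300.0 CPM to 659 and 623 and MED30 from 53.6 and 58.1 to 1482 and 1526. The libraries labelled MED30 also tracked those labelled MYC: over 10415 genes, the log ratio of replicate 2 to replicate 1 correlated with r = 0.852 between the controls of both and 0.904 between their Dox libraries, against -0.225 to 0.159 for every other pair of groups. The 2 sets cannot be counted as independent lines. Of the genes listed for Mia PaCa-2, the epithelial keratins KRT8 and KRT18, the mesenchymal filament gene VIM and the housekeeping gene GAPDH were present in all 12 libraries.

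TSNAXIP1 carried the largest response of the locus in every line. In the libraries labelled MYC, its level was 17.0 and 17.4 CPM without Dox and 103 and 107 CPM with Dox. In the MED30&MYC line it was 12.3 and 15.4 CPM without Dox and 138 and 144 CPM with Dox. The level of the shallow control 2 rests on 21 counts of TSNAXIP1, against 315 in control 1, and is imprecise. In the libraries labelled MED30, the deposited scaled value was 105 and 113 without Dox and 744 and 830 with Dox. The Dox libraries lay above the controls without overlap in all 3 sets. The log2 fold change was 2.60 (SE 0.10) for MYC-labelled libraries, 3.48 (SE 0.13) for the MED30&MYC line and 2.72 (SE 0.09) in the libraries labelled MED30. By size of the rise, TSNAXIP1 held rank 16 of 19318 genes in the libraries labelled MYC, rank 70 in the MED30&MYC line, and rank 8 of 14780 genes in the libraries labelled MED30.

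CENPT, transcribed toward TSNAXIP1 from the opposite end of the pair, was nearly as responsive. Its level was 35.1 and 36.5 CPM without Dox and 184 and 190.3 CPM with Dox in the libraries labelled MYC. It was 26.6 and 20.6 CPM without Dox and 172 and 173 CPM with Dox in the MED30&MYC line, and the scaled values were 304 and 314 without Dox and 1720 and 1986 with Dox in the libraries labelled MED30. The groups did not overlap in any set, and the 2 MED30&MYC Dox libraries nearly coincided. The level of their shallow control 2 rests on 28 counts of CENPT, against 680 in control 1, and is imprecise. The log2 fold change of CENPT was 2.39 (SE 0.10) in the libraries labelled MYC, 2.74 (SE 0.11) in the MED30&MYC line and 2.46 (SE 0.08) in the libraries labelled MED30. Without control 1 of the MED30&MYC line, the response in that line was 3.08 for CENPT and 3.21 for TSNAXIP1.

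**Figure D1:**
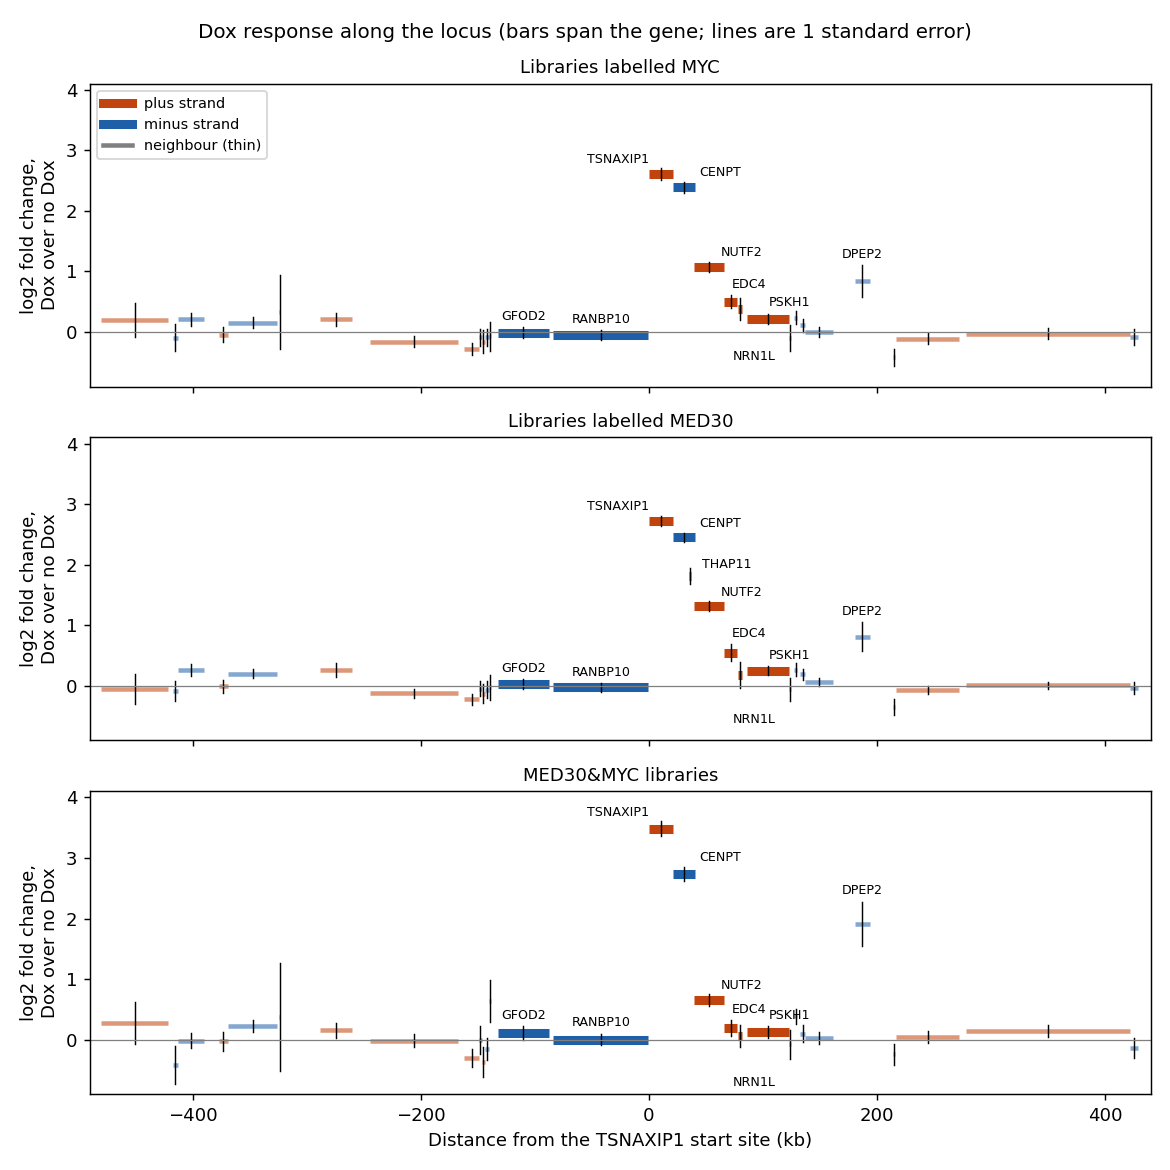
Log2 fold change of Dox over no Dox (vertical axis) of each gene against its position in kb from the TSNAXIP1 start site (horizontal axis), with 1 panel for each set of libraries. Each bar spans a gene, thick for the 8 genes and THAP11 and thin for neighbours, coloured by strand. The vertical line is 1 standard error. TSNAXIP1 and CENPT stand above 2.3 in all 3 panels. The values step down through NUTF2 and EDC4, and RANBP10 lies at the zero line directly to the left.

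NUTF2, whose start lies within the 5' end of CENPT, had the next largest response. Its level was 77.9 and 78.9 CPM without Dox and 164 and 166 CPM with Dox in the libraries labelled MYC, and 69.7 and 65.4 CPM without Dox and 108 and 108 CPM with Dox in the MED30&MYC line. The scaled values in the libraries labelled MED30 were 544 and 552 without Dox and 1373 and 1613 with Dox. All Dox libraries again lay above their controls. The log2 fold change of NUTF2 was 1.08 (SE 0.09) in the libraries labelled MYC, 0.65 (SE 0.10) in the MED30&MYC line and 1.32 (SE 0.08) in the libraries labelled MED30.

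EDC4, which starts 66.2 kb from the TSNAXIP1 start, followed with a smaller difference. Its level was 26.6 and 28.3 CPM without Dox and 33.8 and 43.8 CPM with Dox in the libraries labelled MYC. The Dox libraries of this set differed from each other by more than the controls did. In the MED30&MYC line EDC4 was at 38.0 and 31.6 CPM without Dox and 42.6 and 41.5 CPM with Dox, and in the libraries labelled MED30 the scaled values were 180 and 184 without Dox and 245 and 344 with Dox. Its log2 fold change was 0.50 (SE 0.11) in the libraries labelled MYC, 0.19 (SE 0.13) in the MED30&MYC line and 0.55 (SE 0.14) in the libraries labelled MED30. It was 0.43 in the MED30&MYC line without control 1 and 0.33 in the libraries labelled MED30 without Dox library 2.

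NRN1L and PSKH1, the last genes on the plus strand, start 78.0 and 86.4 kb from the TSNAXIP1 start. NRN1L is the shortest of the 8 genes. It was at 5.87 and 6.08 CPM without Dox and 7.58 and 7.96 CPM with Dox in the libraries labelled MYC. In the MED30&MYC line it was at 8.09 to 13.0 CPM without Dox and up to 13.6 CPM with Dox, and the groups overlapped. The scaled values of NRN1L in the libraries labelled MED30 were 22 and 17 without Dox and 24 and 24 with Dox. Its log2 fold change was 0.38 (SE 0.18), 0.06 (SE 0.18) and 0.18 (SE 0.22) in the libraries labelled MYC, the MED30&MYC line and the libraries labelled MED30. It was 0.68 in the MED30&MYC line without control 1, and 0.36 and 0.00 in the libraries labelled MED30 without control 1 and control 2. PSKH1 was at 55.6 and 55.8 CPM without Dox and 62.4 and 66.8 CPM with Dox in the libraries labelled MYC, and its log2 fold change was 0.21 (SE 0.09), 0.12 (SE 0.10) and 0.25 (SE 0.08) in the same order. With all libraries, NRN1L and PSKH1 differed by less than the standard error of NRN1L in each set.

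RANBP10 and GFOD2 lay on the other side of TSNAXIP1 and had the log2 fold changes nearest to 0 in the libraries labelled MYC and MED30. RANBP10 starts only 328 bases from TSNAXIP1 on the opposite strand, yet it stood at 126.6 and 126 CPM without Dox and 117 and 127 CPM with Dox in the libraries labelled MYC. Its level in the MED30&MYC line was 96.3 and 100.0 CPM without Dox and 95.1 and 99.9 CPM with Dox. The groups of RANBP10 overlapped in all 3 sets, with log2 fold changes of -0.05 (SE 0.09), 0.00 (SE 0.10) and -0.02 (SE 0.07) in the libraries labelled MYC, the MED30&MYC line and the libraries labelled MED30. GFOD2, whose start lies at -87.6 kb, had log2 fold changes of -0.01 (SE 0.09), 0.11 (SE 0.11) and 0.03 (SE 0.08). Its levels were 49.8 and 49.4 CPM without Dox and 48.6 and 49.9 CPM with Dox in the libraries labelled MYC, and 39.1 and 36.0 CPM without Dox and 42.6 and 40.6 CPM with Dox in the MED30&MYC line. The groups of GFOD2 overlapped in the former and not in the latter. Its deposited values in the libraries labelled MED30, 324 and 327 without Dox and 348 and 376 with Dox, did not overlap as deposited but did after TMM scaling.

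**Figure D2:**
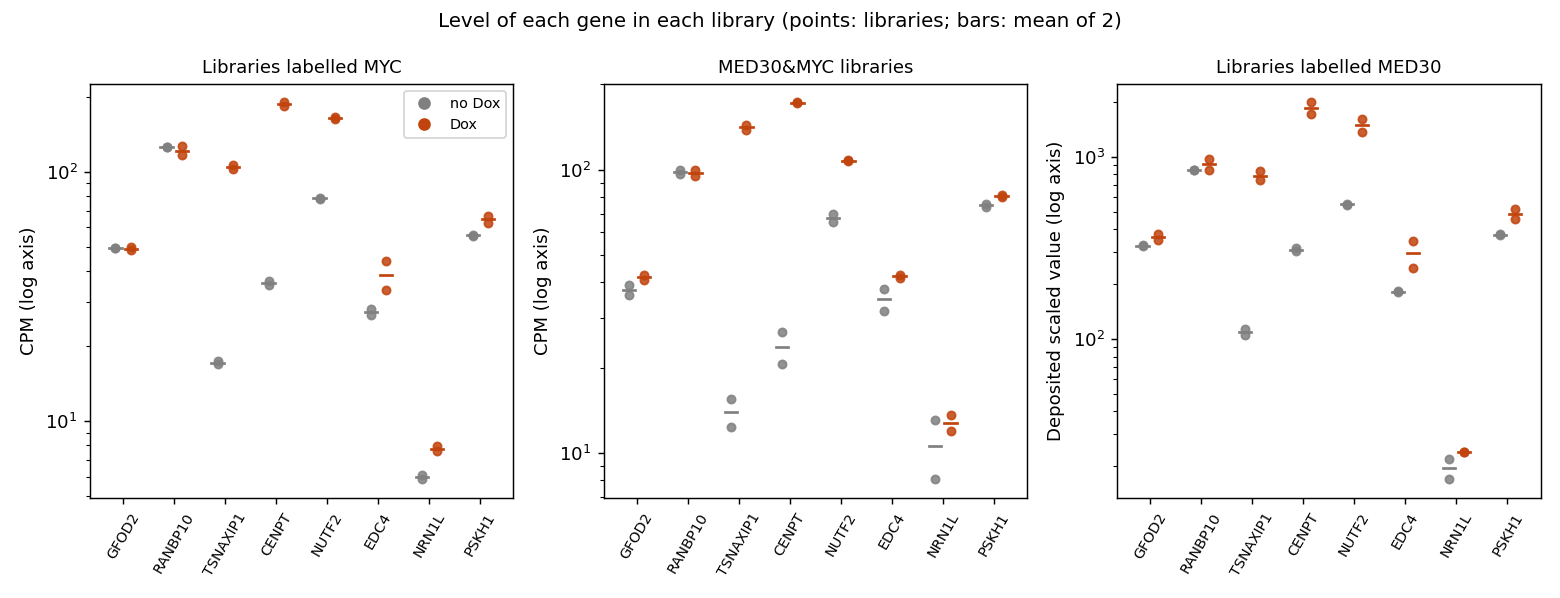
Level of each of the 8 genes in each library, in genomic order, as CPM for the count tables and as deposited scaled value for the libraries labelled MED30, on log axes. Points are libraries, grey without and orange with Dox, and bars are means of 2; the orange points of TSNAXIP1, CENPT and NUTF2 lie clear of the grey points in each panel, while those of RANBP10 overlap them.

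By strand, the plus-strand genes after TSNAXIP1 formed a descending series with distance in the libraries labelled MYC, in the order TSNAXIP1, NUTF2, EDC4, NRN1L and PSKH1. The last steps, from EDC4 (0.50) to NRN1L (0.38, SE 0.18) to PSKH1 (0.21), were each smaller than the standard error of NRN1L. The order held down to EDC4 in the other sets. Without control 1 of the MED30&MYC line, NRN1L (0.68) passed EDC4 (0.43) there. On the minus strand, CENPT was high while RANBP10 and GFOD2 were near 0. The mean response of TSNAXIP1 and CENPT exceeded the median response of the other 6 genes by 2.20 log2 units in the libraries labelled MYC. The excess was 2.99 in the MED30&MYC line and 2.37 in the libraries labelled MED30. Its spread, the root of the summed variances of the control pair and the Dox pair, was 0.04, 0.06 and 0.05. With 1 library left out, the excess ranged from 2.18 to 2.24, from 2.82 to 3.02 and from 2.25 to 2.48, in part beyond this spread. Of the 8 genes, 4 were called higher with Dox in the libraries labelled MYC, where 5.32% of all genes were called higher and 7.71% lower. In the MED30&MYC line 3 were called higher, where 3.65% of all genes were higher and 3.09% lower. For the libraries labelled MED30 the count was 4, where 7.37% of all genes were called higher and 8.63% lower. TSNAXIP1, CENPT and NUTF2 were among them in each set and EDC4 in the libraries labelled MYC and MED30. The genes were chosen on these responses, so the counts are fixed by the selection. On the TMM-scaled values, the Dox libraries lay above the controls for 6 of the 8 genes in the libraries labelled MYC and 6 in the MED30&MYC line, where 26.8% of all genes were so placed in each. For the libraries labelled MED30 the count was 5, where 31.9% of all genes were so placed. The EDC4 call in the libraries labelled MYC was lost without control 1 (log2 fold change 0.46) and without Dox library 2 (0.32).

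The order of the 8 genes changed with Dox once levels were set per kb of gene. In the controls labelled MYC the mean levels were 3.06 CPM per kb for NUTF2, 2.40 for EDC4, 1.83 for CENPT, 1.53 for PSKH1, 1.52 for RANBP10, 1.11 for GFOD2 and 0.812 for TSNAXIP1. NRN1L, at 1.48 and 1.53 CPM per kb, overlapped PSKH1 and RANBP10. TSNAXIP1 had the lowest level per kb of the 8 genes in the controls of both lines with count tables, while in the controls labelled MED30 NRN1L, at 4.91 scaled units per kb, and TSNAXIP1, at 5.15, overlapped. With Dox in the libraries labelled MYC the levels per kb were 9.58 for CENPT, 6.45 for NUTF2, 4.94 for TSNAXIP1, 3.39 for EDC4, 1.96 for NRN1L, 1.77 for PSKH1, 1.46 for RANBP10 and 1.10 for GFOD2. In the MED30&MYC line the level per kb went from 0.656 to 6.67 CPM per kb for TSNAXIP1 and from 1.21 to 8.81 for CENPT, so that both passed NUTF2, at 4.20 CPM per kb with Dox.

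THAP11 was listed at 0 in all 8 count tables. In the MED30 tables its scaled value was 45 and 49 without Dox and 188 and 176 with Dox, a log2 difference of 1.81 (SE 0.13). These values lie within the span of CENPT, on the opposite strand. Among protein-coding genes within a gene of the opposite strand and with a scaled value of at least 10 in all 4 MED30 tables, 195 of 409 (47.7%) were at 0 in all 8 count tables, against 54 of 6833 (0.79%) of those that overlap no other gene. The methods state counting on the sense strand. From the tables alone, reads of the opposite strands cannot be told apart where TSNAXIP1, CENPT, THAP11 and NUTF2 overlap. The ratio of MED30 scaled value to MYC count was 0.33 to 0.377 for CENPT and 0.282 to 0.334 for NUTF2, beside medians over genes of 0.244 to 0.291, and was 0.0952 to 0.152 for NRN1L. CENPT and NUTF2 lay within the 5th to 95th percentile of genes in each pair of tables and NRN1L below the 5th. The part of strand and counting in these responses was not tested.

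The responses to Dox were compared between the MED30&MYC line and the libraries labelled MYC. The difference of the log2 fold changes, MED30&MYC minus MYC, was 0.87 (SE 0.16) for TSNAXIP1 and 0.35 (SE 0.14) for CENPT. It was below 0 for NUTF2 at -0.43 (SE 0.13), for EDC4 at -0.31 (SE 0.17) and for NRN1L at -0.32 (SE 0.25). PSKH1 at -0.09, RANBP10 at 0.06 and GFOD2 at 0.12 lay within their standard errors of 0. The difference was called for 1 of the 8 genes, TSNAXIP1, beside 1.07% of all genes in either direction, of which 0.714% were higher and 0.357% lower. Without control 1 of the MED30&MYC line, which leaves the shallow control alone, the difference of TSNAXIP1 was 0.61 and no longer called, that of CENPT was 0.70, that of EDC4 -0.07, and that of NRN1L turned to 0.30. The difference of EDC4 was -0.49 without Dox library 1 labelled MYC and -0.14 without Dox library 2.

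**Figure D3:**
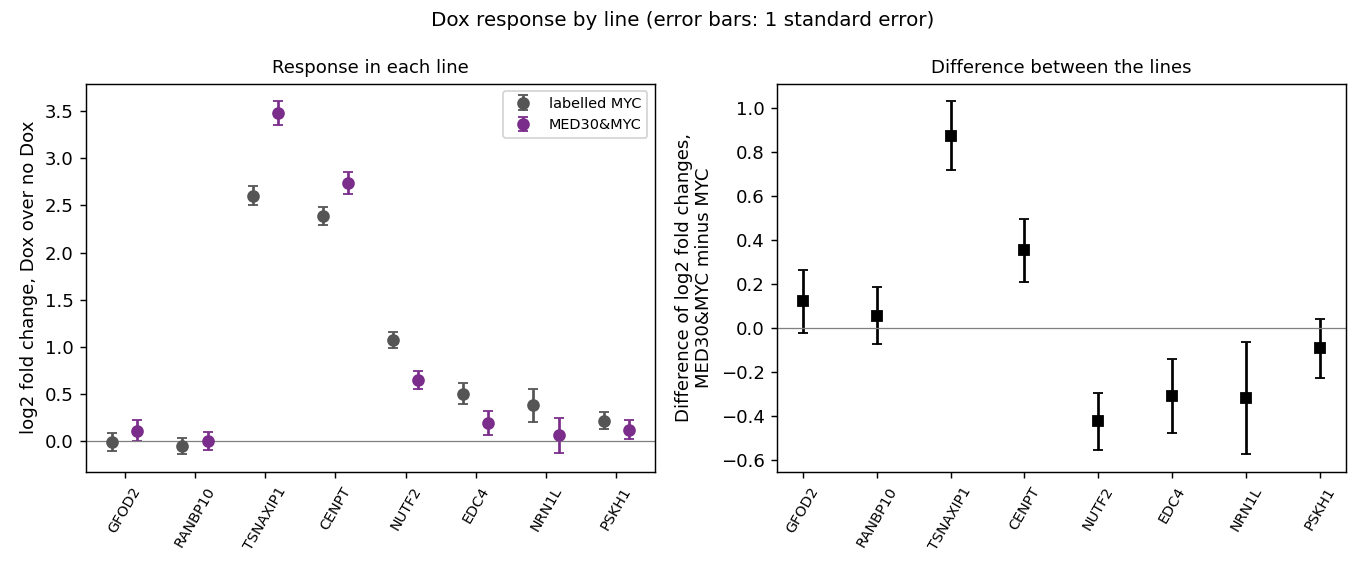
Left, log2 fold change of Dox over no Dox for each gene in the libraries labelled MYC (grey) and in the MED30&MYC line (purple); right, the difference of the 2 log2 fold changes. Error bars are 1 standard error; the difference is above 0 for TSNAXIP1 (0.87) and CENPT (0.35) and below 0 for NUTF2 (-0.43), EDC4 (-0.31) and NRN1L (-0.32) with all libraries, while without control 1 of the MED30&MYC line CENPT is at 0.70, EDC4 at -0.07 and NRN1L at 0.30.

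The levels without Dox were also compared between the MED30&MYC line and the libraries labelled MYC. This contrast was not used to choose the genes, although it shares its control libraries with the Dox contrasts, and line and library preparation cannot be told apart in it. By edgeR's quasi-likelihood test with Benjamini-Hochberg adjustment, 7 of the 8 genes were called, beside 60.2% of all genes. Most genes were called in this contrast, so nothing is read from that count. GFOD2 (log2 ratio -0.36, adjusted p = 0.00488), RANBP10 (-0.38, adjusted p = 0.00143), TSNAXIP1 (-0.44, adjusted p = 0.00452) and CENPT (-0.47, adjusted p = 0.000794) were lower in the MED30&MYC controls, beside 30.2% of all genes called lower. EDC4 (0.42, adjusted p = 0.00557), NRN1L (1.04, adjusted p = 3.43e-05) and PSKH1 (0.41, adjusted p = 0.000702) were higher by the same edgeR test, beside 30% of all genes called higher. NUTF2, which lies between CENPT and EDC4 in genomic order, had a log2 ratio of -0.19 with an adjusted p of 0.0963 in edgeR. Without control 1 of the MED30&MYC line the call was kept for 2 genes, CENPT (-0.81) and PSKH1 (0.43). The log2 ratio was then 0.43 for NRN1L, 0.19 for EDC4, -0.17 for TSNAXIP1, -0.47 for GFOD2 and -0.35 for RANBP10.

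**Figure D4:**
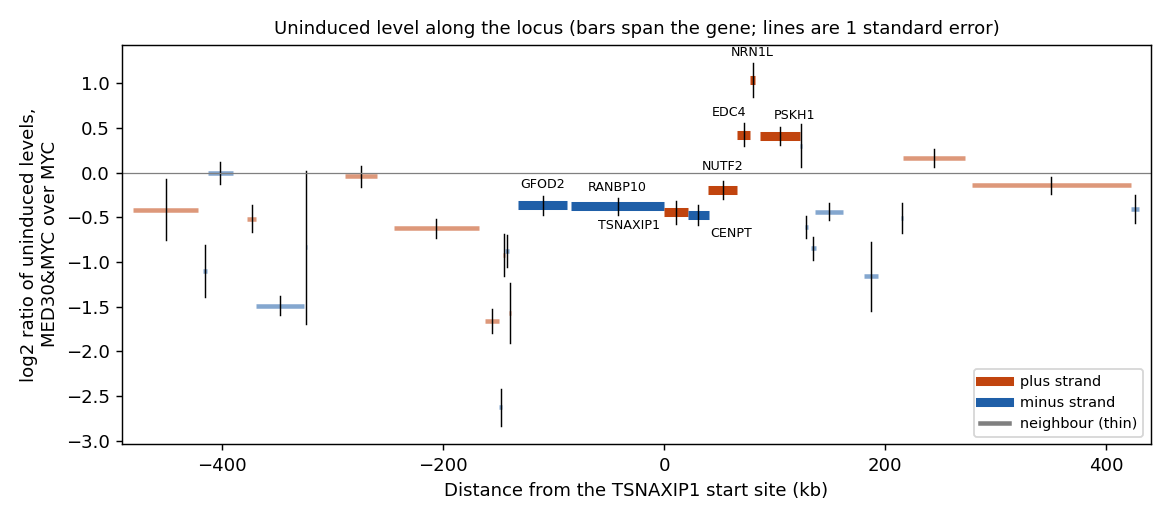
Log2 ratio of the uninduced level, MED30&MYC controls over controls labelled MYC (vertical axis), against distance from the TSNAXIP1 start site in kb. Bars span genes and are coloured by strand, thick for the 8 genes and thin for neighbours, and vertical lines are 1 standard error; GFOD2 to NUTF2 lie below 0 and EDC4, NRN1L and PSKH1 above.

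The neighbours on both sides were mostly without a call. Of 25 annotated genes within 300 kb of the stretch, 23 were tested in the count tables and 22 in the MED30 tables. In the libraries labelled MYC, DPEP2 rose and DDX28 fell, beside 13% of all genes called in either direction. DPEP2 was also the single call in the MED30&MYC line, where it rose, beside 6.74% of all genes called, and in the libraries labelled MED30 DPEP2 rose, beside 16%. DPEP2 encodes a membrane dipeptidase and starts 193.7 kb from the TSNAXIP1 start. Its level was 2.10 and 2.36 CPM without Dox and 3.71 and 4.26 CPM with Dox in the libraries labelled MYC. In the MED30&MYC line it was 1.02 and 0.735 CPM without Dox and 3.14 and 4.33 CPM with Dox. The value of 0.735 CPM is from the shallow control 2, with 1257499 counts over all genes, so it rests on very few reads. The log2 fold change of DPEP2 was 0.84 (SE 0.27, adjusted p = 0.0360 by edgeR) for MYC-labelled libraries and 1.91 (SE 0.37, adjusted p = 0.00115 by edgeR) for the MED30&MYC line, and 0.81 (SE 0.24, adjusted p = 0.0487 by limma) in the libraries labelled MED30. Neither DPEP2 nor DDX28 was called by DESeq2 in the libraries labelled MYC, the DPEP2 call in the libraries labelled MED30 was lost without either control, and that in the MED30&MYC line without control 1. The genes next to the stretch were not called in any set. These are C16orf86 and ENKD1 before GFOD2 and CTRL and PSMB10 after PSKH1. The log2 fold change of PSMB10 was 0.23 (SE 0.11), 0.39 (SE 0.13) and 0.27 (SE 0.11) in the libraries labelled MYC, MED30&MYC and MED30. In the same order PSKH1 was at 0.21, 0.12 and 0.25, and CTRL, between the 2 genes, at -0.10, -0.07 and -0.06. ENKD1 was at -0.08, -0.15 and -0.06, and C16orf86 at -0.07, 0.65 (SE 0.35) and -0.03. The standard errors of CTRL were 0.21, 0.24 and 0.19 in that order of sets. Whether the response fades beyond PSKH1 was not tested. In the uninduced contrast 15 of the 23 neighbours were called lower in the MED30&MYC controls by edgeR and 8 were not called, beside 30.2% of all genes called lower.

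The partners of the encoded proteins were read from lists. Their calls with Dox stand beside the shares of all genes called in either direction. These were 13% in the libraries labelled MYC, 6.74% in the MED30&MYC line and 16% in the libraries labelled MED30. For the difference between the lines the share was 1.07%. The lists are short, so nothing is read from counts near these shares. The constitutive centromere network, to which CENPT belongs, had 15 tested genes. Of these, 2 were called in the libraries labelled MYC, 1 in each direction, beside the 13% of all genes. These were CENPA, the centromeric histone H3 variant (0.76, edgeR adjusted p = 1.83e-06), and CENPN (-0.35, adjusted p = 0.0181 by edgeR). With both genes induced CENPI fell (-0.44, edgeR adjusted p = 0.0125), and CENPA was at 0.13 (edgeR adjusted p = 0.533). The difference between the lines was called for CENPA (-0.62, edgeR adjusted p = 0.0232). The median log2 fold change of the 15 genes was -0.14 for MYC-labelled libraries and -0.06 for the MED30&MYC line, beside medians over all genes of 0.01 and 0.02. For the libraries labelled MED30, where 16 of the network's genes were tested, CENPA rose and CENPN fell. These libraries are not independent of those labelled MYC.

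The counts with Dox in these further lists also stand beside 13% of all genes called in the libraries labelled MYC and 6.74% in the MED30&MYC line. Nothing is read from a count of 0 in lists this short. For NUTF2, whose cargo is Ran, 6 genes of Ran-dependent transport were tested. RCC1, the nucleotide exchange factor of Ran, and RAN itself fell in the libraries labelled MYC (-0.56 and -0.33, edgeR adjusted p = 0.000186 and 0.0129), and the same test called 0 of the 6 in the MED30&MYC line (1 at an unadjusted p under 0.05, 0 by DESeq2), where RAN was at -0.29 (edgeR adjusted p = 0.0809) and RCC1 at 0.07 (edgeR adjusted p = 0.786). The difference between the lines was called for RCC1 (0.62, edgeR adjusted p = 0.0228). Of 9 decapping genes that act with EDC4, LSM14B fell in the MED30&MYC line (-0.42, edgeR adjusted p = 0.0176), and edgeR called 0 of the 9 in the libraries labelled MYC (1 at an unadjusted p under 0.05, 0 by DESeq2). Without Dox all 9 were called higher in the MED30&MYC controls by edgeR, with a median log2 ratio of 0.62, beside 30% of all genes called higher and a median of -0.06 over all genes. Of 10 CTLH ligase genes, YPEL5 rose (0.43, edgeR adjusted p = 0.0124) and MKLN1 fell (-0.33, edgeR adjusted p = 0.0283) in the libraries labelled MYC, of which DESeq2 called 1, and 0 of the 10 were called in the MED30&MYC line by edgeR, at an unadjusted p under 0.05 or by DESeq2. With the MED30-labelled values, limma called the same genes in the same directions, RCC1 (-0.52, adjusted p = 0.00188), RAN (-0.26, adjusted p = 0.0472), YPEL5 (0.47, adjusted p = 0.0139) and MKLN1 (-0.33, adjusted p = 0.0233). The libraries labelled MED30 are not independent of those labelled MYC, so these calls are not a replication. TSN, which encodes translin, fell in the MED30&MYC line (-0.49, edgeR adjusted p = 0.0266, not called by DESeq2) and had a log2 fold change of -0.28 (edgeR adjusted p = 0.165) in the libraries labelled MYC.

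The genes whose pattern was most like that of TSNAXIP1 and CENPT were sought among 13815 genes over the 8 count libraries. The measure was Pearson's r to the mean log2 CPM of this pair, which does not depend on the size of a response. The points share their libraries and fall into Dox and no Dox, so that r is a description. The highest were FAM20C (r = 0.997), IL23R (0.994), TMEM44 (0.993), SYNPO (0.991) and ENOX1 (0.991). FAM20C encodes a secretory-pathway kinase, IL23R a cytokine receptor chain and SYNPO an actin-associated protein. Within the locus r was 0.877 for NUTF2 and 0.694 for EDC4, while NRN1L (0.333), PSKH1 (0.327), GFOD2 (0.275) and RANBP10 (-0.03) were lower.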

How the data were processed

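Groups and replicate numbers of the 12 PRO-seq libraries came from the labels. Per the submitters' processing notes and the methods, the authors used Trim Galore, Bowtie2 on hg38, featureCounts 2.0.3 per gene on the sense strand, and DESeq2 2.11.40.8. The version of the aligner is not given in the sources used here. The authors deposited raw counts for 8 libraries (MYC and MED30&MYC lines). For the 4 libraries labelled MED30 the deposited value is a score, a whole number scaled to nearly equal library totals.

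Counts were fitted in edgeR 4.0.16 under R 4.3.3, with TMM scaling, the filterByExpr filter and the quasi-likelihood test over 4 groups. For the scores, limma 3.58.1 with a trend was run on log2 of TMM-scaled values plus a pseudocount of 1, among genes reaching 10 in at least 2 libraries; this scale understates changes of low genes. P-values were adjusted by Benjamini-Hochberg over all genes tested, at a threshold of 0.05. Levels per kb used the RefSeq span. Without spike-in values here, global changes cannot be seen. Named genes were the 8 genes, THAP11, MED30, MYC, neighbours that were nearest or called, called partners, and the 5 genes most alike. Members and lists were chosen with earlier results of these data known. Scripts were tested on simulated data. The alternatives covered scaling, filter, pseudocount, libraries in the fit, DESeq2 1.42.0, a replicate block, thinned counts and the removal of each library.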

Additional observations from a re-analysis of the deposited data

Results flagged for a closer look

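The difference between the lines in the response of TSNAXIP1 passed the threshold of the interaction contrast over all genes. TSNAXIP1 was chosen for its Dox response in these libraries, so the difference is a description and not independent evidence. The log2 fold change with Dox was 3.48 in the MED30&MYC line and 2.60 in the libraries labelled MYC, a difference of 0.87 (SE 0.16), and the levels with Dox were 138 and 144 CPM against 103 and 107 CPM. The difference was 0.61 without control 1 of the MED30&MYC line and 0.81 with counts thinned to the shallowest library, and it was not called in either case.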

How the results depend on the processing

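No value changed its direction together with a call. The members called with Dox numbered 3 to 5 for MYC-labelled libraries, 3 to 3 for the MED30&MYC line and 4 to 5 for MED30-labelled libraries when 1 library was left out. With all libraries, MYC-labelled libraries gave 5 with upper quartile, where PSKH1 joined, and 6 with library size alone, where NRN1L and PSKH1 joined, and MED30-labelled libraries gave 5 without TMM and 3 without a filter. The excess at TSNAXIP1 and CENPT was 1.94 and 2.84 log2 units with thinned counts in the libraries labelled MYC and the MED30&MYC line, and without 1 library it ranged from 2.18 to 2.24, from 2.82 to 3.02 and from 2.25 to 2.48 in the libraries labelled MYC, the MED30&MYC line and the libraries labelled MED30.

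The difference between the lines was called for 2 of the 8 genes with upper quartile, library size alone, size factors of DESeq2 and its own test, where NUTF2 joined TSNAXIP1, and for 0 with thinned counts. Without 1 library it ranged from 0 (without MED30&MYC control 1) to 3 (without the Dox library 1 labelled MYC), with 2 without Dox library 2. The uninduced contrast gave 2 genes with thinned counts, and 2 to 7 without 1 library, the lowest without MED30&MYC control 1.

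Of the neighbours in the libraries labelled MYC (2 in the report), 1 was called with upper quartile, without a filter and in a fit of 4 libraries, 5 with library size alone, and 0 with DESeq2, thinned counts and the replicate block. In the MED30&MYC line (1 in the report), 2 were called with upper quartile, without a filter, with the replicate block, with crossed numbers and in a fit of 4 libraries, 3 with library size alone and 0 with thinned counts. In the libraries labelled MED30 (1 in the report), 2 were called without TMM, 0 without a filter and 6 with crossed numbers. Without 1 library the neighbours numbered 0 (without either control or Dox library 2) to 3 for MYC-labelled libraries, 0 (without control 1) to 2 (without either Dox library labelled MYC) for the MED30&MYC line, and 0 (without either control) to 7 (without Dox library 1, and 5 without Dox library 2) for MED30-labelled libraries. The cause was not tested. Calls of neighbours therefore depend on the setting, those of DPEP2 and DDX28 included. EDC4 was not called in the libraries labelled MED30 without a filter (0.54).

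No label pairs the same-numbered libraries. Their deviations correlated with r = -0.222, -0.213 and -0.04 in the libraries labelled MYC, those labelled MED30 and the MED30&MYC line. These values cannot show whether same-numbered libraries were handled together. Those of the libraries labelled MYC and MED30 are not independent of each other. The replicate block left 4, 3 and 4 members called in the libraries labelled MYC, the MED30&MYC line and the libraries labelled MED30. With crossed numbers, a choice made after seeing the data, 4, 3 and 5 were called. Where a control group is left with 1 library, that library is assumed to vary like the others. The shallow MED30&MYC control 2 limits the uninduced contrast and the difference between the lines.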
